A study of Mus musculus with 24 samples.

Results

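The comparison described here is that of bone marrow from Cyp1b1-null mice 12 h after 7,12-dimethylbenz(a)anthracene (DMBA), on 2 arrays, with marrow from Cyp1b1-null mice given olive oil, on 2 arrays. These are 4 of the 24 arrays of the series, and they were chosen by the genotype and treatment in their labels. All mice were female, of the C57BL/6j strain and 6 weeks old. DMBA was injected into the peritoneum at 50 mg/kg, and the labels give no time for the oil controls. Each array carried 1 sample labelled with Cy3, which the labels describe as 9 samples pooled, and a Cy5-labelled common reference made from pooled wild-type (WT) marrow of oil-treated mice, with no dye swap. Both groups carried the null allele, and the labels do not say which part of the gene it lacks. The response was also set against that of WT marrow, for which there were 3 arrays at 12 h after DMBA and 3 arrays of oil controls, 1 of which (oil replicate 1) was left out because its log ratios stood apart.

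DMBA is a polycyclic aromatic hydrocarbon that is toxic to bone marrow once it has been metabolised. CYP1B1 is a cytochrome P450 that turns DMBA into reactive dihydrodiol epoxides, and it is the enzyme chiefly linked to DMBA toxicity in mouse marrow, where CYP1A1, the other main enzyme of this kind, is low at rest. Hydrocarbons of this class also bind the aryl hydrocarbon receptor (AhR), a ligand-activated transcription factor that pairs with ARNT on DNA elements with the core GCGTG and raises Cyp1a1, Cyp1b1, Ahrr, Tiparp and Nqo1. Adducts on DNA can activate p53, which raises Cdkn1a, Ccng1, Mdm2, Phlda3 and Bax.

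Spint1, which encodes a membrane-anchored inhibitor of serine proteases, had the most secure rise in the comparison, and the AhR genes Cyp1a1, Tiparp and Nqo1 rose with it. Sequences upstream of the start of Spint1, Cyp1a1, Tiparp and Ahrr, another AhR gene, whose difference missed the threshold, are shown because the AhR core can be read in them. They are the RefSeq promoters of GRCm38.p6, each 250 bases up to the transcript start on the gene's own strand, with GCGTG or its reverse complement CACGC in capitals. Spint1 is at chr2:119237110-119237359 (plus strand), Cyp1a1 at chr9:57697363-57697612 (plus strand), Ahrr at chr13:74292332-74292581 (minus strand) and Tiparp at chr3:65528197-65528446 (plus strand).
Spint1: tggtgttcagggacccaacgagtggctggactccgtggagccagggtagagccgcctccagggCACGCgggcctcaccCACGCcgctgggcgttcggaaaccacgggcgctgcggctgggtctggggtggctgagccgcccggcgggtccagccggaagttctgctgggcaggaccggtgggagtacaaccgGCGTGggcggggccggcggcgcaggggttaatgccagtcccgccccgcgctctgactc
Cyp1a1: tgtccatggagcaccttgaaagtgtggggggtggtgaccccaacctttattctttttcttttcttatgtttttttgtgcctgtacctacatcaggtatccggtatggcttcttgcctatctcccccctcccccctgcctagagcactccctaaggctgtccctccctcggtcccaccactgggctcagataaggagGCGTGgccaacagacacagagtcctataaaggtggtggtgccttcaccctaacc
Ahrr: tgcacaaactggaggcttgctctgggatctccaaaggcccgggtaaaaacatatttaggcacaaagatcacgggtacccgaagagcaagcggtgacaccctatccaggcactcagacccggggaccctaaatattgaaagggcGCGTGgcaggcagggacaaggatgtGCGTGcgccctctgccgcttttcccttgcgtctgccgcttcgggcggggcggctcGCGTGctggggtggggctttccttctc
Tiparp: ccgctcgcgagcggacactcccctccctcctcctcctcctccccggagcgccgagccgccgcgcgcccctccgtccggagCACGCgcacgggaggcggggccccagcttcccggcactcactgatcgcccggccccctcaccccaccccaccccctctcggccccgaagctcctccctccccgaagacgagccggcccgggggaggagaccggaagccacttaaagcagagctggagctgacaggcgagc
Spint1 and Ahrr each held 3 copies of the core in the 300-base window from 250 bases before to 50 after the start, and Cyp1a1 and Tiparp held 1 each. Of 32851 mouse promoters of that length, 32.4% held at least 1 copy on either strand and 3.9% held 3 or more. Nqo1 held 0 copies in its window. Of other genes looked at, Cyp1b1, whose log ratio overlapped between treatments, held 1. Lgals3 held 1 and Cdkn1a held 0 or 1 by transcript start, and both had a higher log ratio after DMBA.

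The labelled tissue and the arrays were checked first. Mpo, Elane, S100a8, S100a9, Cd79a, Pf4 and Csf1r, which mark granulocytic, B, megakaryocytic and monocytic cells of marrow, were each well above background on all 4 arrays. Their Cy3 signals lay at percentiles from 62.1 to 100 of all genes on an array, and no probe was matched to Hbb-b1. The DMBA arrays were alone on 1 slide, and the oil arrays shared another slide with 2 arrays of Cyp1a1-null marrow given benzo(a)pyrene (BP), so slide and treatment cannot be told apart between the 4 arrays. Log ratios of 20257 genes correlated at r = 0.80 between the DMBA arrays, at 0.94 between the oil arrays and at 0.38 to 0.59 across treatments. Between 31 and 32 probes were saturated in Cy5 on each DMBA array, against 309 to 348 on each oil array. The null allele could not be checked with these probes. The brighter Cyp1b1 probe was above the WT reference on every Cyp1b1-null array, with log2 ratios of 0.80 and 0.66 on the DMBA arrays and 0.67 and 1.09 on the oil arrays. It was also above the reference on the 3 arrays of mice lacking both Cyp1a1 and Cyp1b1 (1.24 to 1.62) and on the Cyp1a1-null BP arrays (0.24 to 0.90). The dimmer Cyp1b1 probe stood at 0.26 and -0.19 on the DMBA arrays, against 0.25 and 0.38 on the oil arrays. Where the probes lie relative to the deleted part was not tested. The log ratio of the brighter Cyp1b1 probe overlapped between the treatments (difference -0.15, SE 0.22, limma adjusted p = 0.73).

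Of 20257 genes tested, 350 (1.73%) had a higher and 1040 (5.13%) a lower log2 ratio of sample to reference after DMBA than after oil, at a limma adjusted p under 0.05 (6.86% in all). The 2 DMBA arrays lay above both oil arrays for 30.1% of genes and below both for 39.1%. The samples are pools, and these p-values use a spread between pools that the 10 groups on 23 arrays share, which may be technical. Both arrays of each Cyp1b1-null group were on the same slide. The spread within these groups therefore holds no difference between slides, while the comparison does. The small number of arrays limits precision. The count was 450 without DMBA replicate 1, 21 without DMBA replicate 2, 29 without oil replicate 1, 351 without oil replicate 2, and 14 (0.0691%) with slide as a random block, 1 higher (0.00494%) and 13 lower (0.0642%). With all 24 arrays it was 27 (0.133%), 3 higher (0.0148%) and 24 lower (0.118%). Of the gene lists below, Spint1 and 4 ribosomal proteins passed with slide as a random block, and 1 gene of the respiratory chain with all 24 arrays. Most of the 13 lower genes, these 4 ribosomal proteins among them, had Cy5 saturated on both oil arrays. Those saturated genes were higher in Cy3 alone after DMBA, the other sign. Slc25a35, also among the 13, was not saturated and was 0.22 lower in Cy3. At an unadjusted p under 0.05, 1827 of the 20257 genes were higher and 2955 lower.

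A log ratio joins the sample and the reference, and each channel was therefore also read on its own, as log2 signal relative to the 75th percentile of the array. The reading of Cy5 was added after the data were seen. Over all genes tested the median difference between DMBA and oil arrays was -0.023 in Cy3, which holds the marrow of interest, and 0.39 in Cy5, which holds the reference under the same label on every array. The same model found 9429 genes higher and 3112 lower in Cy5 on the DMBA arrays, where the labels give no difference. In Cy3 alone it called 1 gene, Spint1, with 387 at an unadjusted p under 0.05, and 9088 of the 20257 genes were higher and 11164 lower. Of the 350 genes with a higher log ratio, 194 were also higher in Cy3, with a median difference of 0.033 there and of -0.98 in Cy5. Of the 1040 genes with a lower log ratio, 524 were also lower in Cy3, with a median of -0.0027 there and of 1.59 in Cy5. For the gene groups below, a Cy3 value is therefore given beside the log ratio, though not for every single gene.

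**Figure D1:**
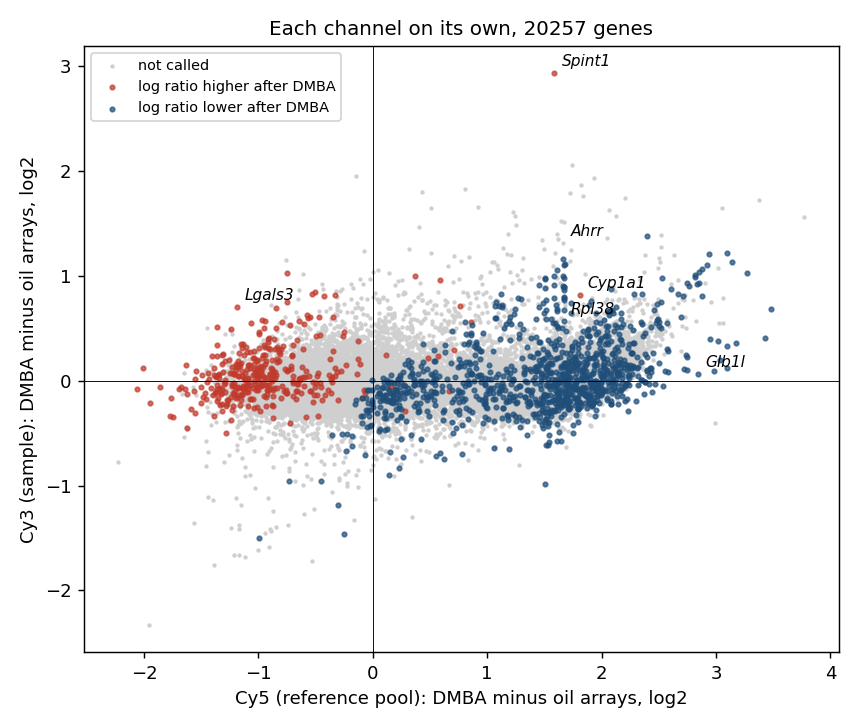
Difference between DMBA and oil arrays of Cyp1b1-null marrow in the reference channel (Cy5, horizontal axis) and in the sample channel (Cy3, vertical axis), both log2, 1 point per gene. Genes called higher (red) and lower (blue) in log ratio are set apart mostly along the Cy5 axis, while Spint1 stands alone at 2.93 in Cy3.

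The AhR battery was a list of 17 tested genes linked to the receptor. It was written with earlier results of these data known, so its counts are a description and no independent support. The list held 4 genes that rose (Spint1, Cyp1a1, Tiparp and Nqo1) and 1 that fell (Htatip2, an oxidoreductase). Its median was 0.090 against -0.052 for all genes tested, of which 1.73% were called higher. In Cy3 alone 14 of the 17 were higher after DMBA (median 0.18), against 9088 of 20257 genes tested. The 5 calls were lost with normexp on every spot, where the 4 rises had adjusted p = 0.052 for Spint1, 0.83 for Cyp1a1, 0.35 for Tiparp and 0.14 for Nqo1, and with all 24 arrays, where these were 0.107 to 0.484.

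Spint1 had log2 ratios of 2.00 and 1.46 on the DMBA arrays, against -0.42 and -0.65 on the oil arrays. Both DMBA arrays were well above both oil arrays, a difference of 2.27 (SE 0.30, limma adjusted p = 0.00146). The Cy3 signal showed the same separation, at 0.91 and 0.93 on the DMBA arrays against -1.88 and -2.15 on the oil arrays (difference 2.93, adjusted p = 9e-05), while Cy5 was 1.59 higher on the DMBA arrays. Spint1 was the only gene that rose with slide as a random block (adjusted p = 0.042), and it passed in 17 of 19 alternatives. In WT marrow Spint1 stood at 2.79, 2.67 and 2.33 after DMBA, against -0.05 and 0.85 after oil, a difference of 2.19. The response in Cyp1b1-null marrow exceeded that in WT marrow by 0.073 (SE 0.41, adjusted p = 0.94).

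Cyp1a1, which encodes the P450 most used as a readout of the receptor, had log2 ratios of 1.31 and 0.55 on the DMBA arrays, against 0.04 and -0.01 on the oil arrays. Both DMBA arrays lay above the oil arrays, and replicate 1 was the higher. Its Cy3 signal was well above background on both DMBA arrays and on neither oil array. Between group means Cyp1a1 was at least 1.75-fold higher after DMBA, a bound set from Cy3 signals after loess and Aquantile scaling and open to dye bias. In Cy3 alone the gene stood at -1.09 and -2.04 on the DMBA arrays, against -2.21 and -2.56 on the oil arrays. DMBA replicate 2 was thus close to the oil arrays. The test was of the Cyp1a1 log ratio (limma adjusted p = 0.0363). Cyp1a1 passed in 8 of 18 alternatives and lost the call without any 1 of the 4 arrays. With processed signals it differed by 3.14 (SE 1.19) and did not pass (adjusted p = 0.090), and with normexp on every spot by 0.13. WT marrow had Cyp1a1 at 1.93, 1.76 and 1.91 after DMBA, against -0.11 and 0.48 after oil, and the null response minus the WT response was -0.77 (SE 0.34) and did not pass the test (adjusted p = 0.21).

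Ahrr encodes the repressor that competes with the receptor for ARNT. It had log2 ratios of 1.52 and 0.59 on the DMBA arrays, against -0.28 and -0.10 on the oil arrays, and the treatments did not overlap. The difference of 1.25 (SE 0.37) missed the threshold (adjusted p = 0.051), was 1.32 in Cy3 alone, passed with processed signals at 3.32 (adjusted p = 0.0105), and was 0.35 with normexp on every spot (adjusted p = 0.53). It passed in 2 of 18 alternatives. Tiparp, an ADP-ribosyltransferase that restrains the receptor, stood at 1.16 on DMBA replicate 1, against 0.25 and 0.23 on the oil arrays. Its spot on DMBA replicate 2 was flagged as non-uniform and has no value, so the difference of 0.92 (adjusted p = 0.044) rests on 1 DMBA array, and it passed in 9 of 18 alternatives.

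Nqo1, a quinone reductase that both the AhR and NRF2 act on, stood at 0.38 and 0.61 on the DMBA arrays, against -0.15 and -0.17 on the oil arrays. All DMBA values were above all oil values, by 0.65 on average (adjusted p = 0.044), and by 0.43 in Cy3 alone. The call held in 9 of 19 alternatives and was lost without any 1 of the 4 arrays (adjusted p = 0.0891 to 0.316). Htatip2 fell by 0.52 in log ratio (adjusted p = 0.037) with a Cy3 difference of 0.0068, which has the other sign. Of the 9 genes of the receptor complex 0 were called by limma, with 5 higher at an unadjusted p under 0.05, against 1827 of 20257 genes tested. Their median was 0.38, and 0.12 in Cy3 alone, and Ahr itself differed by 0.53 in log ratio and 0.13 in Cy3.

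**Figure D2:**
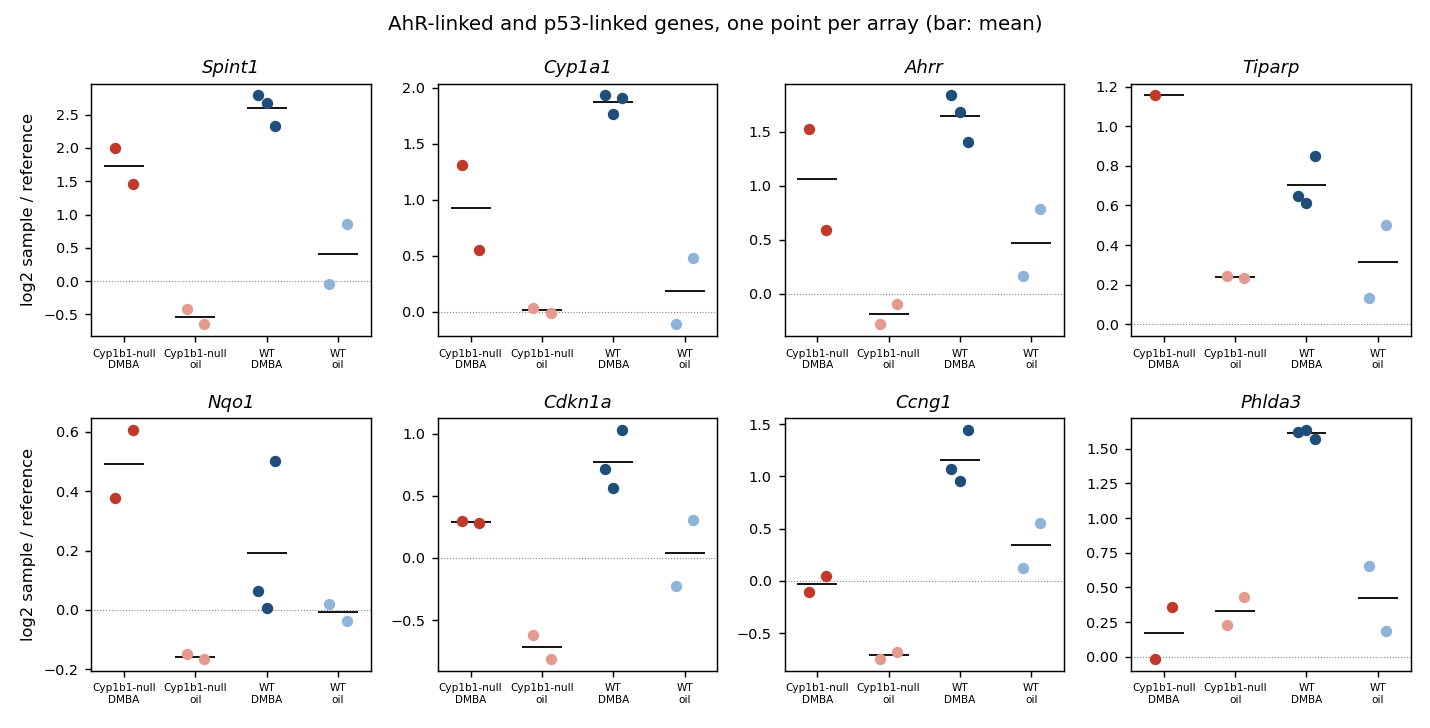
Log2 ratio of sample to WT reference for 5 AhR-linked genes and 3 p53-linked genes (vertical axis), 1 point per array, with bars at group means, for Cyp1b1-null and WT marrow after DMBA and after oil. Spint1 was high on all DMBA arrays of both genotypes, while Phlda3 was at 1.57 to 1.64 on the WT DMBA arrays and at -0.018 and 0.36 on the Cyp1b1-null ones.

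Of 33 p53 targets tested in Cyp1b1-null marrow, 3 rose in log ratio (Cdkn1a, Ccng1 and Fbxw7) and 1 fell (Dcxr), where 1.73% of all genes were called higher and 5.13% lower. The median was -0.034 against -0.052 for all genes, and 0.0093 in Cy3 against -0.023 for all genes. Of the 3 that rose, 1 (Cdkn1a) was also higher in Cy3. Cdkn1a, which encodes the cell cycle inhibitor p21, stood at 0.30 and 0.28 on the DMBA arrays, against -0.62 and -0.81 on the oil arrays. The difference was 1.01 (SE 0.30, adjusted p = 0.048), with 0.41 in Cy3 alone, and it was lost without any 1 of the 4 arrays (adjusted p = 0.161 to 0.250). Ccng1, a cyclin induced by p53, stood at -0.11 and 0.043 on the DMBA arrays, against -0.75 and -0.68 on the oil arrays (difference 0.68, adjusted p = 0.041). Its Cy3 difference was -0.0002, of the other sign, and its Cy5 was 1.01 lower on the DMBA arrays. Fbxw7, part of a ubiquitin ligase, rose by 0.75 in log ratio with -0.083, the other sign, in Cy3, and Dcxr, a carbonyl reductase, fell by 1.52 in log ratio with 0.11, also the other sign, in Cy3.

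Phlda3, a p53 target that restrains AKT, stood at -0.018 and 0.36 on the DMBA arrays, against 0.23 and 0.43 on the oil arrays. The treatments overlapped (difference -0.16, adjusted p = 0.76), with 0.0096, the other sign, in Cy3 and 0.52 in Cy5. In WT marrow it stood at 1.62, 1.64 and 1.57 after DMBA, against 0.66 and 0.19 after oil. The null response minus the WT response was -1.35 (SE 0.36) and missed the threshold (adjusted p = 0.059). Mdm2, the ligase that degrades p53, differed by -0.044 (adjusted p = 0.89, Cy3 0.049). Bax, a pro-apoptotic BCL2 family member, differed by -0.15 (adjusted p = 0.58, Cy3 -0.16). Neither Mdm2 nor Bax passed the limma test. Both changed sign in alternatives given at the end, as did Phlda3. Gdf15, a stress cytokine, differed by -0.12, the nuclease Aen by -0.083 and the BH3-only Pmaip1 by -0.034, and none of them passed.

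The medians of immediate early genes and of inflammatory genes were above that of all genes tested, in both the log ratio and Cy3. Of these lists 2 of 21 and 1 of 23 passed the test, where 6.86% of all genes tested passed. Of 21 immediate early genes 2 rose (Klf2 and Ier5) and 0 fell, with 9 higher at an unadjusted p under 0.05, against 1827 of 20257 genes tested. Their median difference was 0.63, or 0.37 with normexp on every spot, and 19 of 21 were higher in Cy3 (median 0.42), against 9088 of 20257. Ier5, a stress-responsive regulator, stood at 1.17 on both DMBA arrays, against 0.32 and 0.17 on the oil arrays (difference 0.92, adjusted p = 0.030, Cy3 0.51). Klf2, a quiescence factor of leukocytes and endothelium, stood at 0.80 and 0.76 on the DMBA arrays, against 0.029 and -0.32 on the oil arrays (difference 0.93, adjusted p = 0.020, Cy3 0.27). Fos, a subunit of AP-1, stood at 2.15 and 1.65 on the DMBA arrays, against 0.67 and 0.13 on the oil arrays, and did not pass (adjusted p = 0.076). The treatments did not overlap for Fos.

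Of 23 genes of the NF-kB and cytokine list, 1 rose (Ccl9, a chemokine of myeloid cells, by 0.65, adjusted p = 0.046, Cy3 0.095) and 0 fell. At an unadjusted p under 0.05, 11 were higher, against 1827 of 20257 genes tested. The median was 0.51, or 0.33 with normexp on every spot, and 19 of the 23 were higher in Cy3 (median 0.31). Ptgs2, the inducible cyclooxygenase, differed by 1.61 (Cy3 1.24), Cxcl2, a neutrophil chemokine, by 1.27 (Cy3 1.47) and Il1b by 1.19 (Cy3 1.02), and none of them passed. The summed Cy3 level of the list was 161 and 178 on the DMBA arrays, against 137 and 109 on the oil arrays, in units of each array's 75th percentile. The sum over all genes tested was also higher without overlap, at 75340 and 73575 on the DMBA arrays, against 63482 and 63373 on the oil arrays. Summed Cy3 of 20 mature neutrophil genes was 644 and 559 on the DMBA arrays, against 329 and 370 on the oil arrays. For 16 neutrophil granule genes it was 1551 and 1290 on the DMBA arrays, against 910 and 712 on the oil arrays. These sums hold 2 and 5 genes with a saturated Cy3 spot, and S100a9 has no value on oil replicate 1. Over the 18 mature genes with values throughout and no saturated Cy3 spot the sum was 251 and 222 on the DMBA arrays, against 201 and 139 on the oil arrays. For the 11 such granule genes it was 570 and 453 on the DMBA arrays, against 352 and 313 on the oil arrays. Over all 20064 such genes it was 70723 and 68749 on the DMBA arrays, against 61096 and 60875 on the oil arrays. The neutrophil sums were thus higher on the DMBA arrays without overlap either way, as was that of all genes, and their part in the inflammatory and immediate early levels was not tested. In bulk marrow, fewer cells of a type and less RNA per cell cannot be told apart. In WT marrow the median response was 0.084 for the immediate early genes and 0.20 for the inflammatory genes.

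**Figure D3:**
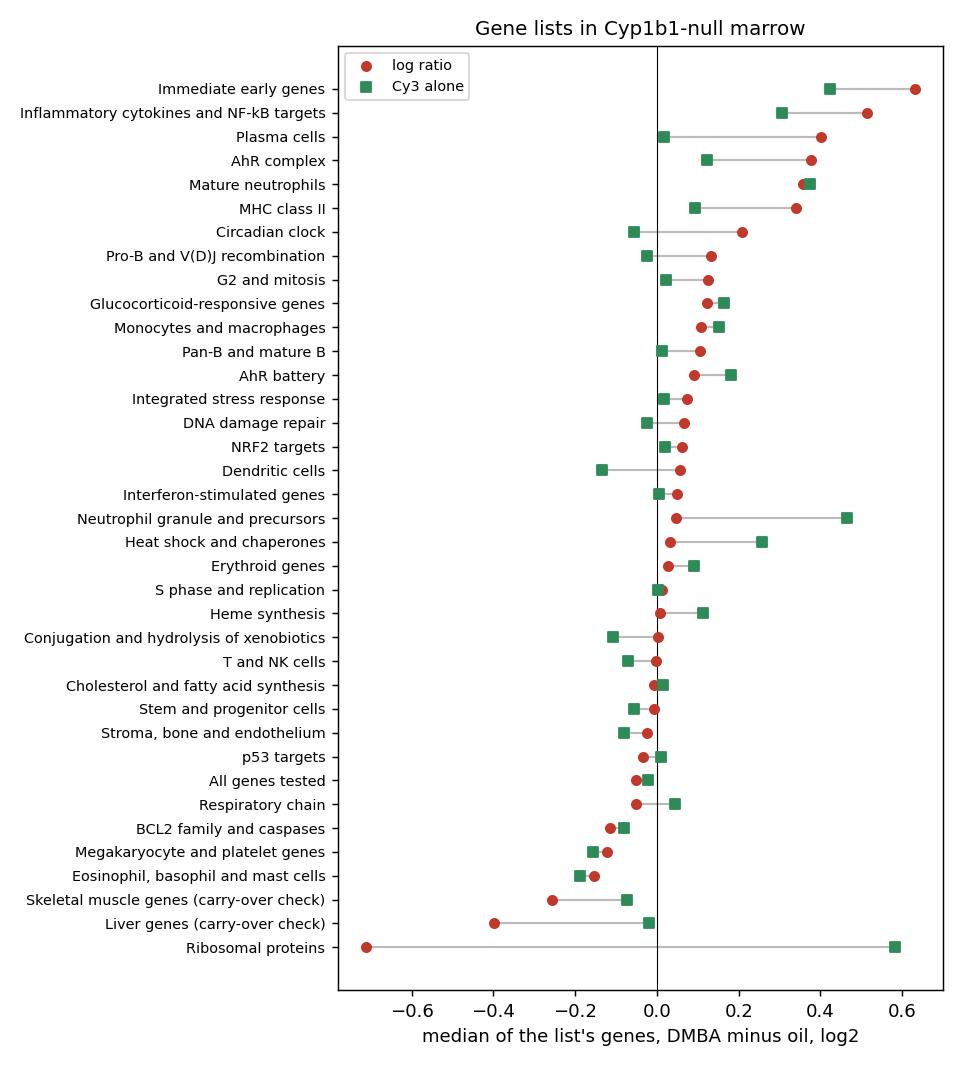
Median difference between DMBA and oil in Cyp1b1-null marrow (horizontal axis, log2) for each gene list and for all genes tested, from the log ratio (red circles) and from Cy3 alone (green squares). Immediate early genes and inflammatory genes are above 0 by both measures, and ribosomal proteins are at -0.71 by the log ratio and at 0.58 by Cy3 alone.

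Among genes that were called in log ratio and also differed the same way in Cy3 at an unadjusted p under 0.05, with arrays that did not overlap in Cy3 and no saturated Cy5 spot, 17 were higher and 20 lower. This set was chosen after its values were seen. Over all genes tested, 218 were higher and 136 lower in Cy3 at that p without overlap in Cy3, whatever their log ratio or Cy5 saturation. Beside Spint1, Cyp1a1 and Ier5, the higher ones included Lgals3 (galectin-3), Tgfbi (a matrix protein of macrophages), Pla2g7 (platelet-activating factor acetylhydrolase), F10 (coagulation factor X), Csf2rb (the shared receptor chain for IL-3 and GM-CSF), Dpep2 and Nfil3. Their log ratio differences were 1.46 for Lgals3, 1.12 for Tgfbi, 1.03 for Pla2g7, 0.92 for F10, 0.79 for Csf2rb, 1.14 for Dpep2 and 0.64 for Nfil3. The lower ones included Marco, a scavenger receptor of macrophages (-1.36, Cy3 -0.72), Fdx1, a mitochondrial ferredoxin (-1.79, Cy3 -0.75), Ocstamp, which acts in osteoclast fusion (-0.93, Cy3 -0.95), and the tropomyosin gene Tpm1 (-0.54, Cy3 -0.52). Lgals3 stood at 0.40 and 0.48 on the DMBA arrays, against -0.83 and -1.23 on the oil arrays, and at 4.83 and 4.82 in Cy3 on the DMBA arrays, against 4.21 and 4.02 on the oil arrays. Both measures put the DMBA arrays above the oil arrays for this gene, as the choice of this set required.

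For most of the remaining large rises in log ratio the difference in Cy5 was larger than that in Cy3. The largest after Spint1 was Igkv9-120, an immunoglobulin kappa variable gene that may share signal with its near-identical family members, at 1.74 (adjusted p = 0.0039, Cy3 1.02). B4galt3 rose by 1.69, Tmem164 by 1.42, Smim3 by 1.25, Zfp36l1, an mRNA decay factor, by 1.28 and Dcaf7 by 1.45, with Cy3 differences of 0.12, 0.16, 0.34, 0.49 and 0.51. Sertad2 rose by 1.63, Gas2l3 by 1.46 and Elane (neutrophil elastase) by 1.33 in log ratio, with Cy3 differences of the other sign (-0.076, -0.16 and -0.059).

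The largest falls in log ratio came with a small difference, of either sign, in Cy3. Glb1l had log2 ratios of 0.24 and -0.39 on the DMBA arrays, against 3.29 and 2.90 on the oil arrays, a difference of -3.17 (adjusted p = 0.0119) with 0.062, the other sign, in Cy3 and 2.84 in Cy5. Hoxb9, a homeobox gene of the trunk, fell by 3.16, Cpeb2, a translation regulator, by 3.02, Tbx20, a heart transcription factor, by 2.83 and Tmem107 by 2.69, with Cy3 differences of 0.33, 0.11, 0.36 and 0.10, which have the other sign. Slc25a35, Evx2, Lgr4, Eml6, Adamtsl3, Syt6 and Bzw2 fell by 2.38 to 2.54, with Cy3 differences from -0.57 for Evx2 to -0.083 for Bzw2 and Cy5 differences from 1.61 to 2.08. On the 2 BP arrays that shared the slide of the oil arrays Glb1l stood at 3.70 and 2.54, against 0.48 on the third BP array of that group, on another slide. Among all 1040 genes lower after DMBA, both BP arrays on the oil slide were above the third for 88.7% of those with values, against 50.6% of all genes tested.

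Olfactory and vomeronasal receptors, which marrow is not known to use and which were listed after the data were seen, gave a similar picture. Of 608 tested, 0 rose and 58 fell, where 1.73% of all genes tested were called higher and 5.13% lower. The receptors had a median of -0.31, and 600 were higher in Cy5 on the DMBA arrays (median 1.75), against 12368 of 20257 genes tested. Their median Cy3 difference was -0.045. Of 8 liver genes 1 fell (G6pc, by 1.86, Cy3 -0.21) and of 13 skeletal muscle genes 0 passed in limma, with 2 lower at an unadjusted p under 0.05. The summed Cy3 of the liver list was 5.11 and 5.05 on the DMBA arrays, against 5.94 and 4.93 on the oil arrays. That of the muscle list was 4.57 and 5.33 on the DMBA arrays, against 5.25 and 5.01 on the oil arrays, so both lists overlapped between treatments.

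Calls among ribosomal protein genes coincided with saturated reference spots. Of 60 tested, 31 had a lower log ratio after DMBA, where 5.13% of all genes tested were called lower. A higher one was called for 1 (Rpl24, by 0.60, with -0.048 in Cy3). The median was -0.71 in log ratio and 0.58, the other sign, in Cy3 alone. On both oil arrays Cy5 was saturated for 29 of the 31. Of the 26 with values, both BP arrays on the oil slide were above the BP array on another slide for 19.2%. They were below it for 76.9%, against 50.6% above and 34.1% below over all genes tested. They were above both DMBA arrays for 88.5% of the 26, against 39.9% of all genes tested. Among all genes lower after DMBA, that share was 92.8% of those with values. These genes, the 31 included, were called lower on the same DMBA arrays, so a high share follows from the choice. Over the 48 genes with a saturated Cy5 spot on 1 or both oil arrays the median was -0.84 in log ratio and 0.67 in Cy3. Over the 12 without one it was 0.12 in log ratio and 0.091 in Cy3, with 1 higher and 2 lower (Rpl14 and Rpl22).

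Rpl38 shows the pattern in each array. Its log2 ratio was -0.47 and -0.50 on the DMBA arrays, against 0.93 and 0.97 on the oil arrays (difference -1.43, adjusted p = 0.000756). Its Cy3 signal was 6.95 on both DMBA arrays, against 6.28 and 6.48 on the oil arrays, and its Cy5 signal was 7.73 and 7.51 on the DMBA arrays, against 5.89 and 6.01 on the oil arrays. The DMBA arrays were thus lower in log ratio and higher in Cy3, and Rpl38 was saturated in Cy5 on all 4 arrays. Rpl9, Rps16 and Rps4x fell by 1.18, 1.26 and 1.21 in log ratio and were 0.67, 0.68 and 0.72 higher in Cy3. A saturated Cy5 spot gives only an upper limit on a log ratio, and copies of ribosomal protein genes elsewhere in the genome may share the signal, so no direction of these genes is drawn from the ratio.

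**Figure D4:**
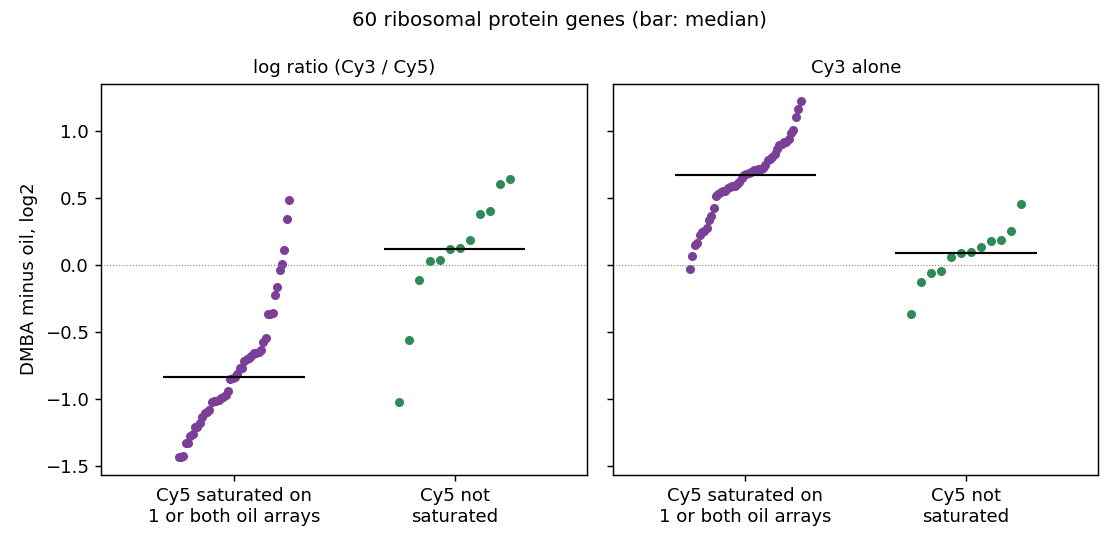
Difference between DMBA and oil for 60 ribosomal protein genes in Cyp1b1-null marrow (vertical axis, log2), from the log ratio (left) and from Cy3 alone (right), 1 point per gene in rising order, with bars at medians. The 48 genes whose Cy5 spot was saturated on an oil array have a median of -0.84 by the log ratio and 0.67 by Cy3 alone, and the 12 others 0.12 and 0.091.

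In each list of blood cell genes 0 to 2 members passed the test, where 6.86% of all genes tested passed. The summed Cy3 of the neutrophil lists was higher after DMBA, as given above, and 13 of 16 granule genes were higher in Cy3 (median 0.47). Several abundant ones fell in log ratio with Cy5 saturated on both oil arrays and were higher in Cy3. These were S100a9, an alarmin of neutrophils (-1.57, Cy3 0.34, with no value on oil replicate 1), Hba-a2, an alpha globin (-1.08, Cy3 0.91), Fth1, ferritin heavy chain (-0.88, Cy3 1.12), Prg2, eosinophil major basic protein (-1.24, Cy3 0.77), Chil3, a lectin of myeloid cells (-0.84, Cy3 0.46), Alas2, the erythroid enzyme that starts heme synthesis (-0.74, Cy3 0.72), and Cox6a1, a subunit of cytochrome c oxidase (-1.37, Cy3 0.55). Ear1, an eosinophil ribonuclease whose Cy5 was saturated on both oil arrays, fell by 1.40 in log ratio, with -0.033 in Cy3. The Cy3 spots of Hba-a2, S100a9 and Chil3 were themselves saturated on both DMBA arrays and that of Cox6a1 on 1, and on neither oil array, so their Cy3 differences are lower limits.

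Without saturation, falls in log ratio with the other sign in Cy3 were seen for Cd3e, a T cell receptor subunit (-1.68, Cy3 0.67), Cr2, complement receptor 2 of B cells (-1.69, Cy3 0.20), Erg, a stem cell and endothelial factor (-0.66, Cy3 0.29), and Lmo2, a progenitor factor (-0.59, Cy3 0.18). Falls with the same sign in Cy3 were seen for Btk, a kinase of B cells (-0.66, Cy3 -0.11), Tcf4, a dendritic cell factor (-1.01, Cy3 -0.21), and C1qb, a complement subunit of macrophages (-0.82, Cy3 -0.0098). Prdm1, the plasma cell regulator, rose by 0.88 (adjusted p = 0.033, Cy3 0.56). Of 20 mature neutrophil genes 0 rose by limma and S100a9 fell. At an unadjusted p under 0.05, 5 were higher, against 1827 of 20257 genes tested. The list had a median of 0.36 and a Cy3 median of 0.37, and 19 of 20 were higher in Cy3. Of 12 class II genes 0 passed, with 2 higher at an unadjusted p under 0.05 (median 0.34, Cy3 0.092). Of 30 interferon-stimulated genes 0 passed (median 0.048, Cy3 0.0043), with 1 higher and 2 lower at an unadjusted p under 0.05.

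Metabolic, stress and cell cycle genes moved singly. In cholesterol and fatty acid synthesis 3 of 22 rose, where 1.73% of all genes tested were called higher, and the median was -0.006 (Cy3 0.014). The 3 were Cyp51, a demethylase of the pathway (1.02, Cy3 0.037), Srebf2, its master regulator (0.63, Cy3 0.053), and Srebf1 (0.55, with -0.080, the other sign, in Cy3). Por, the reductase that feeds electrons to P450s, rose by 0.63 (Cy3 0.26) and Ephx2, soluble epoxide hydrolase, fell by 1.22 (Cy3 -0.21). Alas1, the housekeeping enzyme of heme synthesis, rose by 0.73 (Cy3 0.22), and Nfil3, a circadian repressor, by 0.64 (Cy3 0.61). Mcm7, a helicase subunit, rose by 0.68 (Cy3 0.14) and Ccna2, cyclin A2, by 0.64 (Cy3 0.20), while Gins1 and Pola1, of the replication machinery, fell by 0.79 and 0.54, with -0.20 and 0.056 in Cy3, the second of the other sign. Atf4, Ercc1, Cyc1 and Atp5d rose by 0.55, 0.49, 0.80 and 0.60 in log ratio with Cy3 differences of the other sign (-0.031, -0.25, -0.11 and -0.33), and Hspa4l fell by 0.59 with 0.059 in Cy3.

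With the signals that the scanner software had already processed, 2285 genes were called (11.3%), 1054 higher (5.2%) and 1231 lower (6.08%). The genes they added with the largest rises were dim. These were Ahrr (3.32), Nepro (3.06), Gpnmb (2.98), Napepld (2.68), Krt80 (2.64) and the chemokine Cxcl3, which differed by 0.57 to 1.25 in the fitted log ratio and did not pass there. Cxcl3 was well above background on neither oil array and has only a bound, at least 1.44-fold higher (adjusted p = 0.19 in the fitted log ratio). Napepld was -0.034, the other sign, in Cy3 alone. The added falls were Olfr924 (-4.40), Aqp5 (-2.92), Wnt3 (-2.87), Olfr242 (-2.70), Dnah14 (-2.49) and Lrrc37a (-2.49). For Olfr924 the value rests on DMBA replicate 2, at -6.47 against -0.17 on DMBA replicate 1, with 0.85 and 1.33 on the oil arrays, and Olfr924 was well above background on 1 DMBA array. Olfr242 stood at -1.23 and -0.61 on the DMBA arrays, against 3.49 and 0.075 on the oil arrays, and was well above background on 1 oil array. Wnt3 and Dnah14 were of the other sign in Cy3 alone, at 0.55 and 0.28. The authors' deposited table gave Spint1 a log2 difference of 3.53, Cyp1a1 3.41, Ahrr 3.32, Cdkn1a 1.21, Nqo1 0.85 and Phlda3 0.08 for this comparison. Over 43379 probes the authors' deposited values for this comparison matched the difference of Feature Extraction's own log ratios at r = 1.00. Those for DMBA against oil in WT marrow matched it at r = 0.42, with all 3 WT oil arrays used, replicate 1 among them. Against the log ratio differences fitted here over 20257 genes, r was 0.73 in WT marrow and 0.87 in Cyp1b1-null marrow. That fit left WT oil replicate 1 out.

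The response of Cyp1b1-null marrow was also set against that of WT marrow, to ask what CYP1B1 adds to the DMBA response. The null response compares arrays of 1 slide with arrays of another, and the WT arrays were on other slides. In the difference of responses, the genotype and the gap between the null slides therefore cannot be told apart. The difference of responses passed for 415 genes (2.05%), 61 higher (0.301%) and 354 lower (1.75%) in the null. In WT marrow itself 2 genes passed (0.00987%), Spint1 and Cyp1a1, both higher. Spint1, Ahrr, Ccng1 and Cdkn1a differed in response by 0.073, 0.077, -0.14 and 0.28, and none of them passed. Among the genes that passed, clone and predicted names aside, the largest positive differences were for Minpp1 (1.98), Sertad2 (1.91), Gas2l3 (1.86), Dcaf7 (1.55), Kif18a (1.46) and Usp6nl (1.45), and the largest negative ones for Bzw2 (-2.77), Zfp473 (-2.69), Acsf2 (-2.67), Cdca2 (-2.66), Syt6 (-2.64) and Slc25a35 (-2.63). These rest on the same null oil arrays as the counts above. In Cy3 alone 0 genes passed for the difference, with 1184 at an unadjusted p under 0.05, and Gas2l3 took the other sign. With slide as a random block 4 passed, all lower in the null and with Cy5 saturated on both null oil arrays. The count was 243 and 7 without DMBA replicates 1 and 2, and 3 and 20 without oil replicates 1 and 2 of the null mice. It was 22, 34 and 876 without WT DMBA replicates 1, 2 and 3, and 1872 and 10 without WT oil replicates 2 and 3.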

How the data were processed

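Marrow RNA was measured on two-colour Agilent arrays. The deposited scanner files hold intensity values per spot (Agilent software 9.1.3.1 on 20 arrays and 10.7.3.1 on the others), with mean and background signals, processed signals and flags, and per the file headers a LogRatio on the log10 scale. The deposited table holds log2 differences between groups. The submitters' processing notes name limma, without a version.

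R 4.3.3 was used with limma 3.58.1, statmod 1.5.0 and version 1.17.8 of data.table. Background was corrected by normexp (offset 50) and log2(Cy3/Cy5) normalized by loess within arrays. Spots flagged as non-uniform were left out, also of the normexp fit: on each DMBA array 9 to 14 of them per channel had a local background far above the spot. Keeping them moved the DMBA arrays to 7.71 and 8.01, in place of 5.84 and 5.99, at percentile 5 of log2 Cy3. The brightest probe per gene was kept, and genes were tested if Cy3 was well above background on at least 2 of the 4 Cyp1b1-null arrays. Of 41174 probes, 24844 were named by accession, 6045 by symbol and 1810 by synonym through RefSeq GRCm38.p6, and 8475 kept the file's name. One model with a mean for each of 10 groups was fitted to 23 arrays, with Benjamini-Hochberg adjustment. Tested on simulated data for this comparison (20262 genes), it recovered 37 of 100 changes of 1 and 93 of 100 changes of 2 on the log2 scale, with 13 false calls. The simulated noise was independent between arrays, with no slide effect and no shift in Cy5. The false calls therefore give no error rate for data in which slide and treatment cannot be told apart.

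Named genes were 10 AhR and p53 genes, the 12 largest rises and falls among called genes with arrays that did not overlap, up to 5 called members of each list and 3 going the other way, the 6 largest differences of responses each way, and the 6 largest each way that passed with processed signals alone. Clone and predicted names were left out, and a few genes that this rule or the marrow marker list picked are not reported here. Other genes with values (among them Ahr, Fos, Ptgs2, Cxcl2, Il1b, Gdf15, Aen, Pmaip1, Rpl14, Rpl22 and those picked for agreement in Cy3) were chosen after their values were seen. The groups, gene lists and this rule were chosen with earlier results of these data known. Alternatives changed the arrays fitted, background correction, filter, probe summary, channel, scaling, blocks and prior. Those added after the data were seen were normexp on every spot, leaving out genes with a saturated Cy5 spot, Cy5 alone, and sums without genes saturated in Cy3.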

Additional observations from a re-analysis of the deposited data

Results flagged for a closer look

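The response to DMBA differed between Cyp1b1-null and WT marrow by the test of the difference itself (limma, adjusted p under 0.05) for 415 genes. Slide and treatment cannot be told apart in the null response, so this difference cannot be credited to the genotype. Among the genes named here the null response minus the WT response, on the log2 scale, was positive for Minpp1 (1.98), Sertad2 (1.91), Gas2l3 (1.86), Dcaf7 (1.55), Kif18a (1.46), Usp6nl (1.45), Mcm7 (0.94) and Atf4 (0.80). It was negative for Bzw2 (-2.77), Zfp473 (-2.69), Acsf2 (-2.67), Cdca2 (-2.66), Syt6 (-2.64), Slc25a35 (-2.63), Eml6 (-2.58), Lgr4 (-2.57), Adamtsl3 (-2.43), Evx2 (-2.42) and S100a9 (-1.96). It was also negative for Cr2 (-1.91), Rps16 (-1.78), Rpl38 (-1.76), Ear1 (-1.51), Prg2 (-1.43), Cox6a1 (-1.42), Rpl9 (-1.42), Rps4x (-1.38), C1qb (-1.26) and Fth1 (-1.20). Of these, S100a9, Rps16, Rpl38, Ear1, Prg2, Cox6a1, Rpl9, Rps4x and Fth1 had saturated Cy5 spots on both Cyp1b1-null oil arrays, which leaves their oil log ratios as upper limits, so no direction is drawn for them. In Cy3 alone 0 of these differences passed in limma, with 1184 of all genes at an unadjusted p under 0.05. For the genes without saturation the DMBA difference in Cyp1b1-null marrow was larger in Cy5 than in Cy3. Examples are Bzw2 (Cy3 -0.083, Cy5 1.88), Zfp473 (Cy3 0.076, Cy5 2.08), Cr2 (Cy3 0.20, Cy5 1.78) and Sertad2 (Cy3 -0.076, Cy5 -2.06). No direction in the sample is drawn from the ratio for them either.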

How the results depend on the processing

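For DMBA against oil, 1390 genes were called as reported. The count was 27 with all 24 arrays, 5965 with the groups compared alone, 2285 with processed signals, 1 with Cy3 alone, 14 with slide as a random block, and 21 to 450 with 1 Cyp1b1-null array left out. For the difference of responses, 415 were called as reported. The count was 0 with all 24 arrays, 1989 with the groups compared alone, 1128 with processed signals, 0 with Cy3 alone, 4 with slide as a random block, 639 with a replicate block, 806 with normexp on every spot, and 3 to 1872 with 1 array left out. The other alternatives stayed within 1.5 times of the reported count. The share of higher calls was 25.2% as reported, 46.1% with processed signals and 42.4% with normexp on every spot. The causes were not tested. Same-numbered Cyp1b1-null arrays deviated from their group means with r = 0.10 across genes, over 1 independent pair, and share only a number. The replicate block gave 1971 calls for DMBA against oil. With Cy3 alone the DMBA difference took the other sign for these named genes: Ccng1 -0.0002, Mdm2 0.049, Phlda3 0.0096, Sertad2 -0.076, Gas2l3 -0.16, Elane -0.059, Glb1l 0.062, Hoxb9 0.33, Cpeb2 0.11, Tbx20 0.36, Tmem107 0.10, Htatip2 0.0068, Dcxr 0.11, Fbxw7 -0.083, Ercc1 -0.25, Fth1 1.12, Atf4 -0.031, Hspa4l 0.059, Hba-a2 0.91, Alas2 0.72, Erg 0.29, Cr2 0.20, Cd3e 0.67, Chil3 0.46, S100a9 0.34, Prg2 0.77, Lmo2 0.18, Pola1 0.056, Rpl38 0.57, Rpl9 0.67, Rps16 0.68, Rps4x 0.72, Rpl24 -0.048, Cox6a1 0.55, Cyc1 -0.11, Atp5d -0.33, Srebf1 -0.080, Kif18a -0.026, Zfp473 0.076, Napepld -0.034, Wnt3 0.55, Dnah14 0.28. Gas2l3 took it for the difference of responses (-0.059). Mdm2 also changed sign with slide as a random block (0.018) and with normexp on every spot (0.16), Phlda3 with processed signals (0.078) and Bax with normexp on every spot (0.047). With 1 Cyp1b1-null array left out, Mdm2 ranged from -0.15 to 0.059, Phlda3 from -0.35 to 0.025 and Cyp1b1 from -0.36 to 0.061. Aquantile scaling changed no named gene's call. Signal over background limits the dim genes, and Cyp1a1 and Cxcl3 after oil have only a bound.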
